A study of Mus musculus with 4 samples.

Results

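The expressed Zfp zinc finger genes were those whose symbol is Zfp followed by a number and whose gene counts summed to at least 2000 over the 4 samples. They were 124 of the 351 genes with such a symbol and of 37718 gene rows in all. They were chosen by these counts, so their levels are given as a description. The rule does not use the genotype difference, but it was set with earlier results of these data known. The 3 genes just inside the threshold were Zfp622 with 2011 counts and Zfp472 and Zfp977 with 2029 each, and the 3 just outside were Zfp174 with 1989, Zfp444 with 1978 and Zfp993 with 1922. Of the 124 genes, 116 had at least 1000 counts in each genotype, and the other 8 had between 896 and 993 in the lower one. A further 8 rows with at least 2000 counts join a gene of this name with overlapping genes and were left out, among them Zfp91 with Cntf at 58073 counts.

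The samples were total RNA of hCD4+ cells from testes of mice 20 days post partum (dpp), 2 samples of Tdrd6+/- and 2 of Tdrd6-/-. Each was pooled from at least 4 mice. The cells were taken with beads against human CD4, which the endogenous Tdrd6 promoter drives in these mice, and the study calls them diplotene cells. No wild-type sample was included, so the Tdrd6+/- samples are the controls throughout. TDRD6 is a Tudor domain protein of male germ cells, and the study asked whether its loss changes splicing in primary spermatocytes.

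Most Zfp proteins carry C2H2 zinc fingers, in which a pair of cysteines and a pair of histidines hold a zinc ion, and rows of such fingers read a DNA sequence. Many of them also carry a KRAB box near the amino terminus. The KRAB box binds TRIM28 (KAP1), which brings the histone methyltransferase SETDB1, HP1 proteins and deacetylases to the bound site, and retrotransposons are their best known targets. Their genes lie in clusters that grew by duplication, so neighbours can be nearly identical in sequence.

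The last point is visible in the Zfp genes of the chromosome 4 cluster. The coding sequence of a complete finger with its linker is shown for Zfp990, the gene with the strongest difference between the genotypes, and beside it the best match in the other 3 expressed members of the cluster that share most sequence with other genes. In the Zfp990 line the capitals mark the codons of the 2 cysteines and 2 histidines, and in the other lines they mark bases that differ from Zfp990. The positions are chr4:145537325-145537405 for Zfp990, chr4:147178891-147178971 for Zfp991, chr4:146466631-146466711 for Zfp992 and chr4:146537844-146537924 for Zfp981, all on the plus strand of mm10 and within coding exons.
Zfp990: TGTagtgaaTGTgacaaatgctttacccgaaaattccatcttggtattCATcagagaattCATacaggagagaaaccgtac
Zfp991: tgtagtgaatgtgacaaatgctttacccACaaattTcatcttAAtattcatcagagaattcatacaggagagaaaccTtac
Zfp992: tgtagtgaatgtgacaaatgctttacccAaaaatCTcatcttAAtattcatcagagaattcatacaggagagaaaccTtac
Zfp981: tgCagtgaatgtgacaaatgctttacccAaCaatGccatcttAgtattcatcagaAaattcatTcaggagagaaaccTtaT
Over these 81 bases Zfp991 and Zfp992 each differed from Zfp990 at 6 bases and Zfp981 at 9. Of all stretches of 50 bases in the transcripts, 29.1% in Zfp990, 43.0% in Zfp992, 82.2% in Zfp991 and 40.0% in Zfp981 also occurred in the transcripts of another gene. Counts of these 4 genes are therefore uncertain, since fragments on shared stretches could have been split between copies. For 92 of the 124 genes this share was under 1%, and for 9 it was above 10%, 8 of which held the KRAB pattern described below.

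By the translated coding sequence, 51 members held a KRAB pattern, 72 did not and 1, Zfp389, has no annotated coding sequence. The 51 are called KRAB members here. The pattern can miss diverged boxes, so members without it may still be KRAB genes. The median number of C2H2 fingers was 11 in the KRAB members and 7.5 in the others. The range over all members was wide, from 1 finger in Zfp598, a ubiquitin ligase of collided ribosomes, in Zfp326, a subunit of the DBIRD complex, and in the paralogs Zfp608 and Zfp609, to 36 fingers in Zfp142. Chromosome 7 held 33 of the members and chromosome 17 held 13, while the X chromosome held 1, Zfp711.

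The libraries held 26454326 to 31388750 gene counts and 9603669 to 13937818 intron counts. Tdrd6 itself was at 1269 and 1412 CPM, which are counts put on an equal library size, in the Tdrd6+/- samples and at 11.4 and 12.5 in the Tdrd6-/- samples, as the labels say. Spermatocyte markers were high, with a summed level of 6543 to 7992 CPM over 11 genes, of which Sycp1 and Sycp2, both of the synaptonemal complex, rose and Piwil1 fell. Markers of round spermatids, of which Prm1 and Tnp2 were at or near 0, summed to 11.8 and 15.4 CPM in Tdrd6+/- and 25.7 and 22.9 CPM in Tdrd6-/-, and 2 of the 4 tested rose. The summed Sertoli cell markers were at 94.3 and 93.7 CPM in Tdrd6+/- and 110 and 122 CPM in Tdrd6-/-, and those of spermatogonia and early meiosis at 136 and 110 CPM and then 130 and 148 CPM, with median log2 fold changes of 0.37 and 0.29. Leydig cell, peritubular and endothelial, and leukocyte markers summed to at most 9.93, 5.22 and 5.98 CPM. No single gene of these 5 lists passed the test. The part of these differences in the results below was not tested. In bulk RNA, fewer cells of a type and less RNA per cell cannot be told apart.

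Levels of the Zfp genes spanned a range of 77.2-fold when counted per length, as CPM per kb of exon. Exon lengths are from GENCODE M21 and the counts rest on Ensembl v75. For 83 of the 124 members the number of introns was the same in both, and for the others the length is less certain. The median was 8.62 CPM per kb, against 15.3 for the 6298 other genes with at least 2000 counts. The middle 50 percent of the members lay between 4.96 and 14.4 CPM per kb, and 52 of 124 were above 10. The 6 members with the most counts took 29.3% of the counts of all 124.

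**Figure D1:**
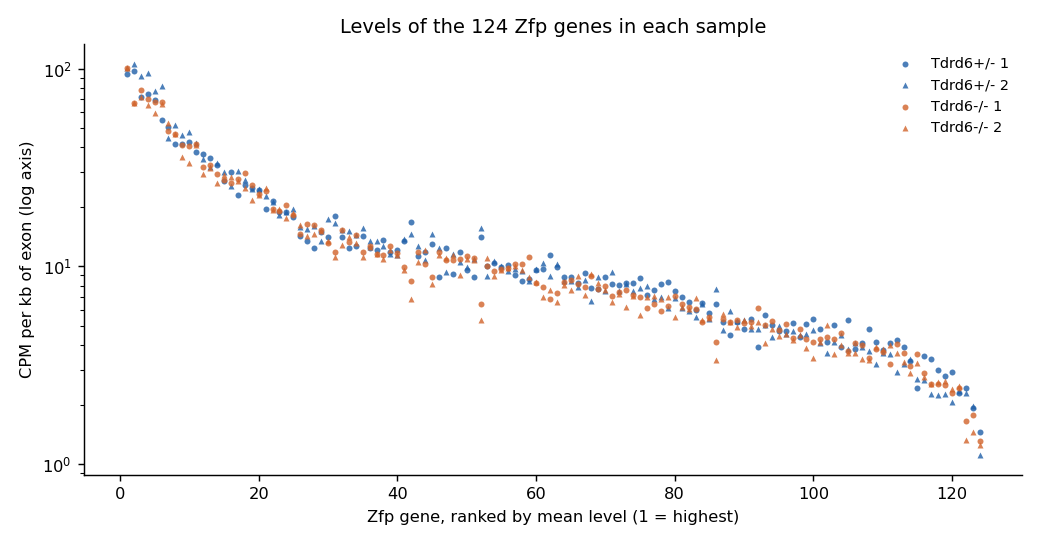
Level of each of the 124 Zfp genes in CPM per kb of exon (log axis), ranked by the mean of the 4 samples, with blue points for Tdrd6+/- and orange points for Tdrd6-/- and the replicate given by the shape. The levels fall from 98.9 to 1.28 CPM per kb, and at most ranks the 4 points lie close together.

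The highest mean over the 4 samples belonged to Zfp110 (Nrif1), which carries KRAB domains and interacts with the p75 neurotrophin receptor, at 94.0 and 100.2 CPM per kb in Tdrd6+/- and 100.4 and 100.9 in Tdrd6-/-. Next came Zfp35, known for its expression in pachytene spermatocytes, at 97.6 and 106 CPM per kb in Tdrd6+/- and 66.6 and 66.9 in Tdrd6-/-. By the mean of each genotype Zfp35 ranked 1 in Tdrd6+/- and 5 in Tdrd6-/-. Zfp646 followed at 78.4 ± 9.60 CPM per kb (SD, n = 4), and Zfp541, a chromatin factor needed for spermatocytes to leave pachytene, stood at 76.4 ± 12.9. Zfp654 and the KRAB gene Zfp39 had 68.4 ± 6.97 and 67.8 ± 10.9 CPM per kb. The means of Zfp646 and Zfp541, and those of Zfp654 and Zfp39, differed by less than the spread over the samples. For Zfp646, Zfp541 and Zfp654 the number of introns differed between the counts and the annotation, so their ranks per kb are less certain.

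At the low end Zfp738 was at 1.28 ± 0.140 CPM per kb (SD, n = 4) and Zfp398 at 1.78 ± 0.234, both with a KRAB pattern. Zfp142, with its 36 fingers, was at 1.92 ± 0.526. Zfp622, a factor of the maturing large ribosomal subunit, was at 2.39 ± 0.0864, and Zfp568, a KRAB repressor of a placental Igf2 transcript, at 2.41 ± 0.361. Zfp410, which activates Chd4, was at 2.55 ± 0.217. These 6 genes have 7130 to 15129 bases of exon, and the median member has 5212.

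KRAB members had a median level of 7.09 CPM per kb and the members without the pattern 10.1, with ranges that overlapped almost fully, from 1.28 to 98.9 and from 1.92 to 84.3. Across the 123 coding members, the number of fingers and the log2 level had a Pearson correlation of -0.10 and a Spearman correlation of -0.14. These genes share the libraries and are not independent replicates. The 124 genes together held 0.977% and 0.995% of all gene counts in Tdrd6+/- and 0.982% and 0.908% in Tdrd6-/-. The genotypes overlapped in this share (two-sided exact permutation test, p = 0.67; 2 samples against 2 cannot give less than 0.33).

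Against Tdrd6+/-, 11 of the 124 Zfp genes fell in Tdrd6-/- and 0 rose, by edgeR's quasi-likelihood test with the false discovery rate (FDR) held at 0.1. Among all 16555 genes tested, 3.78% fell and 1.02% rose, and among the members 8.87% fell. Only 6834 gene rows had at least 2000 counts, so the 16555 include genes with fewer counts than any member. These shares are not matched for abundance, and a share over genes of like abundance was not computed. The genes that fell include the KRAB members Zfp990, Zfp212 and Zfp868, and 8 members without the pattern, Zfp664, Zfp609, Zfp608, Zfp142, Zfp35, Zfp236, Zfp202 and Zfp451. At an unadjusted p under 0.05, 17 members were lower and 2 higher, and DESeq2 also called 11 lower and 0 higher. The median log2 fold change was -0.05 over the members and 0.01 over all genes.

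**Figure D2:**
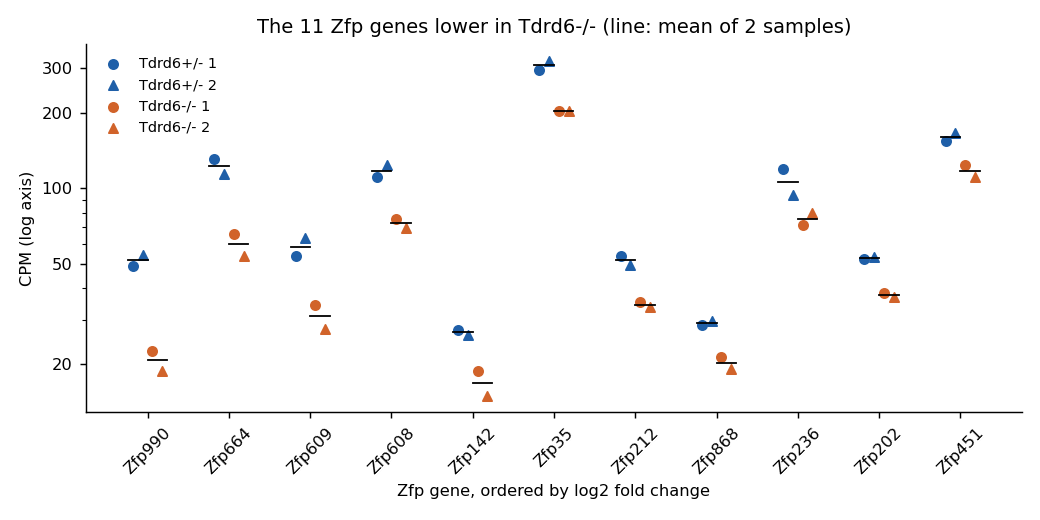
CPM (log axis) of the 11 Zfp genes that fell in Tdrd6-/-, with a point for each sample (blue Tdrd6+/-, orange Tdrd6-/-) and a line at the mean of the 2 samples. In each gene both Tdrd6-/- samples lie below both Tdrd6+/- samples, from Zfp990 with a log2 fold change of -1.32 to Zfp451 with -0.44.

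How many genes passed depended on single samples, and the share of all genes that fell also changed with the sample left out. Without Tdrd6+/- replicate 1 the count was 7, without Tdrd6+/- replicate 2 it was 9, without Tdrd6-/- replicate 1 it was 6 and without Tdrd6-/- replicate 2 it was 3, with 0 higher in each. Zfp990, Zfp664 and Zfp609 passed in all 4 of these fits. Zfp35 and Zfp608 passed in 3 of them, and Zfp202 and Zfp868 passed in 0.

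Zfp990, a KRAB gene with 13 fingers at chr4:145510759-145539188, was at 49.1 and 54.5 CPM in Tdrd6+/- and at 22.5 and 18.8 CPM in Tdrd6-/-. The groups lay far apart compared with their spread (log2 fold change -1.32 ± 0.16 SE, edgeR adjusted p = 3.36e-05). Its counts share the uncertainty of the cluster described above. The cluster members Zfp992, Zfp991 and Zfp981 had log2 fold changes of -0.20, -0.05 and -0.19 with adjusted p of 0.63, 0.93 and 0.72 (edgeR). The gene that held most of the stretches shared with Zfp990 was Zfp987, whose level is not given here.

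Zfp664 lies at chr5:124862691-124902693 and has 9 fingers and no shared stretch of 50 bases. It was at 131 and 114 CPM in Tdrd6+/- and at 66.1 and 53.8 CPM in Tdrd6-/-, so the higher Tdrd6-/- sample was well below the lower control (log2 fold change -1.03 ± 0.14 SE, edgeR adjusted p = 0.000156).

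Zfp609 and Zfp608 are paralogs with a single finger. Zfp609 works with the Integrator complex and the cohesin loader NIPBL in neurons, and Zfp608 is known as a repressor of the Rag genes in thymocytes. Zfp609, at chr9:65692391-65827564, was at 53.6 and 63.7 CPM in Tdrd6+/- and 34.4 and 27.7 CPM in Tdrd6-/- (log2 fold change -0.92 ± 0.16 SE, edgeR adjusted p = 0.00137). Zfp608, at chr18:54888048-54992555, was at 111 and 124 CPM in Tdrd6+/- and 75.6 and 69.6 CPM in Tdrd6-/- (-0.69 ± 0.14 SE, edgeR adjusted p = 0.00443). In neither gene did the groups overlap.

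Zfp35, the second most abundant member per kb by the mean of all samples, lies at chr18:23989632-24005376 and has 17 fingers. It was at 297 and 322 CPM in Tdrd6+/- and 202 and 203 CPM in Tdrd6-/-, with nearly equal Tdrd6-/- samples (log2 fold change -0.61 ± 0.13 SE, edgeR adjusted p = 0.00833). Zfp212, a KRAB gene with 4 fingers at chr6:47920476-47932639, was at 54.0 and 49.8 CPM and then 35.3 and 33.7 CPM (-0.59 ± 0.15 SE, edgeR adjusted p = 0.0295). Zfp142, at chr1:74565127-74588246, was at 27.5 and 26.1 CPM and then 18.7 and 14.97 CPM (-0.67 ± 0.18 SE, edgeR adjusted p = 0.0393).

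The other 4 genes fell by 0.44 to 0.53 on the log2 scale, with edgeR adjusted p between 0.070 and 0.097, near the threshold. Zfp451, a SUMO ligase that extends SUMO chains, was at 154 and 166 CPM in Tdrd6+/- and 124 and 111 CPM in Tdrd6-/-. Zfp236, with 30 fingers, was at 119 and 93.9 CPM and then 71.8 and 80.0 CPM, and its control samples differed more than its Tdrd6-/- samples. Zfp202 was at 52.3 and 53.2 CPM and then 38.4 and 37.0 CPM. Zfp868 was at 28.7 and 29.7 CPM and then 21.3 and 19.1 CPM.

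**Figure D3:**
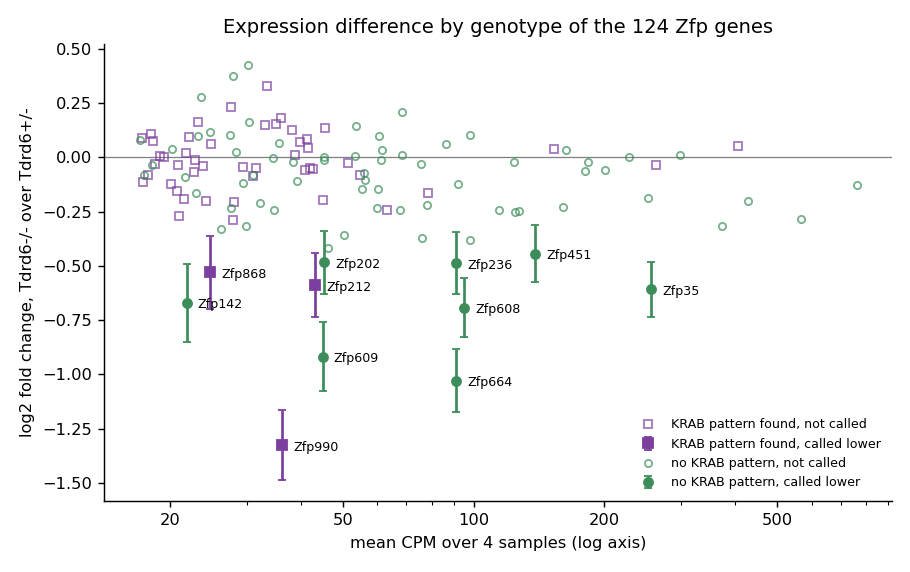
Log2 fold change of the 124 Zfp genes, Tdrd6-/- over Tdrd6+/-, against the mean CPM of the 4 samples (log axis), with squares for KRAB members and circles for the others. Filled symbols with SE bars are the 11 genes that fell, and the 113 open symbols lie between -0.42 and 0.43.

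The remaining 113 genes had log2 fold changes within 0.5 of 0, with a median SE over the members of 0.15. The highest was Zfp473 at 24.4 and 27.1 CPM in Tdrd6+/- and 36.3 and 32.8 CPM in Tdrd6-/- (log2 fold change 0.43 ± 0.16 SE, edgeR adjusted p = 0.20), which was chosen after its value was seen. Both Tdrd6-/- samples were below both Tdrd6+/- samples in 44 members (35.5%) and above them in 18 (14.5%). Over all genes tested, which include less abundant ones, these shares were 23.4% and 20.1%.

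Among members with the KRAB pattern 3 of 51 fell (5.88%) and among those without it 8 of 72 (11.1%). Whether these shares differ was not tested, and those without the pattern may include KRAB genes that it missed. The median log2 fold change was -0.03 in the first group and -0.10 in the second. By position, 3 of the 7 members on chromosome 18 fell, where 4.62% of all 368 genes tested fell, and 0 of the 33 members on chromosome 7, where 3.06% of 1112 genes fell. On chromosome 17 it was 0 of 13 (3.72% of all its genes) and on chromosome 4 it was 1 of 6 (4.27%). Zfp451 and Zfp142 lie on chromosome 1, which held 3 members, and Zfp609 and Zfp202 on chromosome 9, which held 10. The share of all genes on chromosomes 1 and 9 that fell was not computed. All of the chromosomes in this paragraph were named after the calls were seen, and an effect of position was not tested. The lone X-linked member, Zfp711, was at 21.7 and 26.9 CPM in Tdrd6+/- and 34.0 and 29.0 CPM in Tdrd6-/- (log2 fold change 0.37 ± 0.17 SE, edgeR adjusted p = 0.32).

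KRAB proteins act through corepressors. Of 22 measured corepressor and heterochromatin genes 4 fell (18.2%, where 3.78% of all genes tested fell) and 0 rose. Their median log2 fold change was -0.09. This list and that of the other zinc finger factors below were drawn up with earlier results of these data known. All genes tested include less abundant ones, so the shares are not a like comparison. A link of these lists to the Zfp genes was not tested. Trim28 was at 688 and 705 CPM in Tdrd6+/- and 670 and 703 CPM in Tdrd6-/-, and Setdb1 at 198 and 186 CPM and then 171 and 166 CPM (edgeR adjusted p = 0.97 and 0.58). The 4 that fell were the deacetylase Hdac1, the SETDB1 partner Atf7ip, the maintenance DNA methyltransferase Dnmt1 and its partner Uhrf1, with log2 fold changes of -0.70, -0.62, -0.47 and -0.47. Of 21 other zinc finger factors measured, 2 fell (9.52%) and 0 rose. Ctcf, the insulator protein, was at 57.5 and 53.3 CPM and then 34.6 and 30.4 CPM (log2 fold change -0.77, edgeR adjusted p = 0.00451), and Sp1, which binds GC boxes, at 170 and 150 CPM and then 124 and 114 CPM (-0.43, edgeR adjusted p = 0.0849).

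Promoter sequences of RefSeq, from 250 bases before to 50 bases after the start on GRCm38.p6, were found for 98 of the 124 members and for 6 of the 11 that fell, not for Zfp990, Zfp609, Zfp608, Zfp35 or Zfp236. They are shown for Zfp664, Zfp212 and Zfp142, the 3 of these 6 with the smallest adjusted p, with capitals for any match on either strand to the GC box, the CCAAT box, the cAMP response element or the TATA box. The GC box was searched as GGGCGG. The cAMP response element was searched in its full palindromic form, TGACGTCA. For the last of the 4 motifs the search used the letters TATAAA. The windows are chr5:124862455-124862754 (plus strand), chr6:47920318-47920617 (plus strand) and chr1:74587979-74588278 (minus strand).
Zfp664: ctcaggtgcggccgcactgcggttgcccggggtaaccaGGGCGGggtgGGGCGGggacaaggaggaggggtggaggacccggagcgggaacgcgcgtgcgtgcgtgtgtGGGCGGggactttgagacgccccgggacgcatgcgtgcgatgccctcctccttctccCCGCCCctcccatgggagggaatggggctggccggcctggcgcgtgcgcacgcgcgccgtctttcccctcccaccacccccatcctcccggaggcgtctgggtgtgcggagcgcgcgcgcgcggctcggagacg
Zfp212: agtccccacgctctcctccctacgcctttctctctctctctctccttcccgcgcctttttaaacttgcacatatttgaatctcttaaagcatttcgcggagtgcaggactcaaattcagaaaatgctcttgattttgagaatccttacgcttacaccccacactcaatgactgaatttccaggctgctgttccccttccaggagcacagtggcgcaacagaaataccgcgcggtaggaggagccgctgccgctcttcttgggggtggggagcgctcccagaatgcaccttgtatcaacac
Zfp142: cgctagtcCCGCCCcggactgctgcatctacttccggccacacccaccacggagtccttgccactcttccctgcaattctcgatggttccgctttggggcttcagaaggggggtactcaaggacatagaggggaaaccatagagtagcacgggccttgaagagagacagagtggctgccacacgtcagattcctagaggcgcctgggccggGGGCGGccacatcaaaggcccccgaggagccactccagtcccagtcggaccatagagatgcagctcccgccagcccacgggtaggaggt
The Zfp664 window held 4 GC boxes and 39 CpG dinucleotides. The Zfp142 window held 2 GC boxes and 16 CpG dinucleotides, and the Zfp212 window held none of the 4 motifs and 14 CpG dinucleotides. Over the 128 promoter windows of the members, 59.4% held a GC box, 41.4% a CCAAT box, 6.25% a cAMP response element and 3.91% a TATA box. In all 32851 windows of the table these shares were 35.7%, 37.4%, 1.79% and 13.6%, and the median number of CpG dinucleotides was 17 in the members and 7 in all. Of the 7 windows of members that fell, 5 held a GC box. These matches describe letters in the window and were not tested.

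Intron counts can come from unspliced or retained sequence and, as the study considered, from unknown genes within introns. These counts do not tell such sources apart. The members have a median of 5 introns, against 10 in the other genes of that abundance, and Zfp830 has none in the files. For each gene the summed intron counts were divided by its gene counts. The median of this ratio over the members was 0.320 and 0.283 in Tdrd6+/- and 0.267 and 0.211 in Tdrd6-/-, with no overlap (two-sided exact permutation test, p = 0.33, the smallest that 2 samples against 2 can give). Total intron counts divided by total gene counts of the whole library were 0.527 and 0.419 in Tdrd6+/- and 0.425 and 0.306 in Tdrd6-/-. This is a ratio of totals and not a median over genes, so it is not a like measure for the members' values. The whole-library values overlapped between the genotypes. In 7 members introns took more counts than the gene row.

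Per kb of intron and exon, the ratio could be set for 82 members. These have introns, and as many in the deposited counts as in the annotation. Intron positions could not be compared, so intron lengths are inferred from the annotation. The median of this ratio over genes was 0.0982, against 0.0726 in 4208 other genes. The 6 highest were Zfp446 at 0.541 ± 0.0470 (SD, n = 4), Zfp768 at 0.412 ± 0.0791, Zfp398 at 0.343 ± 0.0531, Zfp612 at 0.300 ± 0.0271, Zfp821 at 0.299 ± 0.0385 and Zfp992 at 0.261 ± 0.102. Zfp992 was at 0.378 and 0.308 in Tdrd6+/- and 0.215 and 0.145 in Tdrd6-/-, so it ranked 3 in the former and 22 in the latter. Zfp446 and Zfp768 have only 692 and 273 bases of intron. The 6 lowest were Zfp800 at 0.0114 ± 0.00182, Zfp991 at 0.0120 ± 0.00527, Zfp93 at 0.0150 ± 0.00260, Zfp35 at 0.0159 ± 0.00139, Zfp39 at 0.0181 ± 0.00280 and Zfp990 at 0.0201 ± 0.00303. The abundant genes Zfp35 and Zfp39 are thus among those with the least intron signal per exon signal. Across the 82 genes the Spearman correlation of this ratio with the level per kb was -0.53, and both measures share the gene count.

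With intron and gene counts each scaled on their own, the ratio changed in 5 of 123 members, higher in 2 and lower in 3 (edgeR quasi-likelihood test of the interaction, FDR 0.1). Of all 15190 genes, 0.79% were higher and 1.28% lower. Changes of the ratio are thus given relative to each library's own share of introns. When both kinds of count were scaled alike, the median log2 change was -0.24 over all genes and -0.30 over the members, and 0 members were higher and 3 lower.

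**Figure D4:**
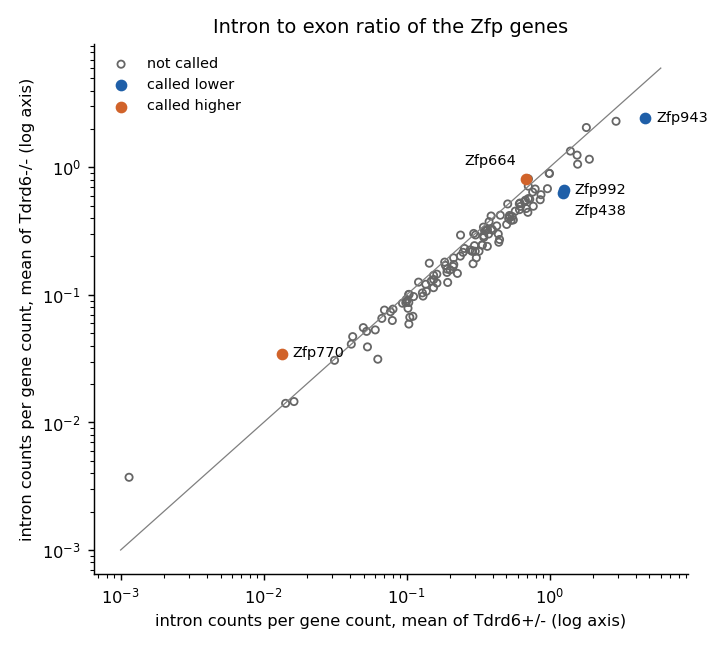
Intron counts per gene count of 123 Zfp genes, the mean of 2 Tdrd6-/- samples against the mean of 2 Tdrd6+/- samples (both log axes), with the line of equality. In 107 of them the Tdrd6-/- mean, without scaling, is the lower one, and this share was not computed over all genes. The whole-library ratio of totals had a mean of 0.473 in Tdrd6+/- and 0.365 in Tdrd6-/-. The 5 named genes passed the test after separate scaling.

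Zfp943, a KRAB gene at chr17:21962552-22071168, had 5.02 and 4.36 intron counts per gene count in Tdrd6+/- and 3.01 and 1.85 in Tdrd6-/-. It had the highest ratio of all members, and the groups did not overlap (log2 change -0.68 ± 0.16 SE, edgeR adjusted p = 0.0254). In Zfp992, at chr4:146449023-146470292, the ratio was 1.39 and 1.13 and then 0.789 and 0.532 (-0.65 ± 0.15 SE, edgeR adjusted p = 0.0275). Zfp438 had 1.56 and 0.934 and then 0.804 and 0.451, with a wide spread in both groups (-0.70 ± 0.18 SE, edgeR adjusted p = 0.0383). The gene counts of these 3 did not pass the test, with log2 fold changes of -0.07, -0.20 and 0.03.

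The ratio of Zfp664 was 0.740 and 0.618 in Tdrd6+/- and 0.862 and 0.752 in Tdrd6-/- (log2 change 0.55 ± 0.16 SE, edgeR adjusted p = 0.0795). Both its intron and its gene level were lower in Tdrd6-/-, with log2 differences of -0.48 and -1.03. Zfp770 rests on few counts, with 11 and 10 intron counts in Tdrd6+/- and 22 and 29 in Tdrd6-/- (1.66 ± 0.38 SE, edgeR adjusted p = 0.0231). Neither of these 2 passed when both kinds of count were scaled alike. Leaving out a sample shifted the calls, and the share of all genes that passed shifted in the same direction. Without Tdrd6+/- replicate 1, 0 members passed, without Tdrd6-/- replicate 2, 2 passed, and without Tdrd6-/- replicate 1, 9 passed.

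In all 11 genes that fell, the mean intron level was lower in Tdrd6-/- too, with log2 differences of only -0.06 in Zfp142 and -0.09 in Zfp451. The 11 were chosen for lower gene counts, and the share over the other genes that fell was not computed. Both Tdrd6-/- samples were below both controls in introns in 9 of the 11, the exceptions being Zfp142 and Zfp212, in 35.8% of the 123 members and in 21.0% of all genes. Zfp990 introns were at 19.4 and 18.2 CPM of all intron counts in Tdrd6+/- and 7.68 and 8.32 in Tdrd6-/-. Zfp608 introns were at 457 and 400 CPM and then 289 and 233. Zfp142 introns were at 16.6 and 13.7 CPM and then 14.3 and 14.6, within the range of the controls. Over the 11 genes the median log2 difference was -0.61 in gene counts and -0.43 in intron counts.

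Of 211 introns in 87 members that had enough counts to be tested, 3 changed their share of the gene's intron counts, 1 higher and 2 lower (DESeq2 likelihood ratio test against the other introns of the gene, FDR 0.1). That is 1.42% of them, and over all 28903 introns tested 1.94% changed. The 3 introns belong to Zfp992 and Zfp523 (ZNF76 in humans). Their positions below are inferred from the annotation, since the deposited counts number introns without positions.

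**Figure D5:**
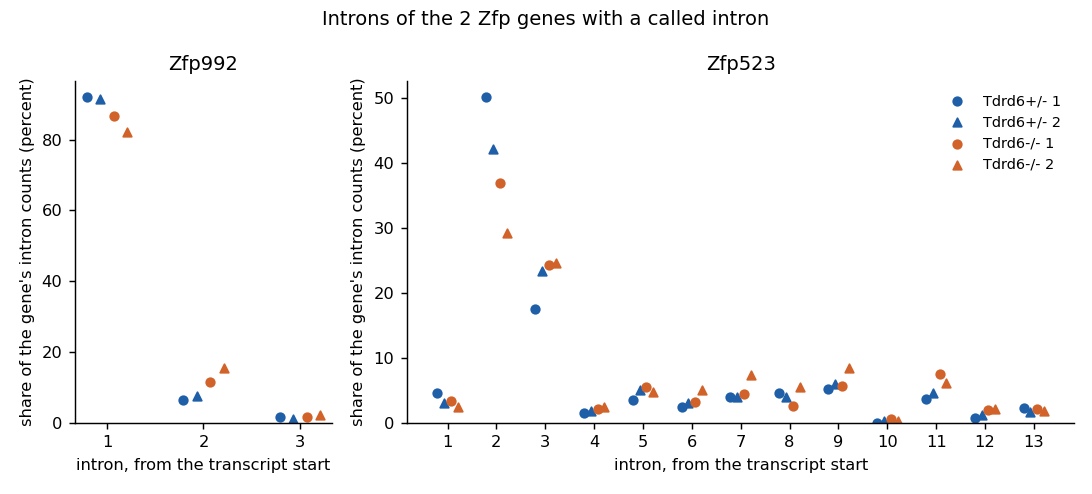
Share of each gene's intron counts (percent) held by each intron of Zfp992 and Zfp523, numbered from the transcript start, with blue points for Tdrd6+/- and orange points for Tdrd6-/-. Intron 1 of Zfp992 fell from a mean of 91.7% to 84.4%, and intron 2 of Zfp523 from 46.1% to 33.0%.

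The first intron of Zfp992, chr4:146449076-146463504 and 14429 bases long, took 92.0% and 91.3% of all Zfp992 intron counts in Tdrd6+/- and 86.6% and 82.3% in Tdrd6-/- (log2 change -0.998 ± 0.21 SE, DESeq2 adjusted p = 0.00212). Its counts were 1575 and 1403 and then 929 and 570. Intron 2, chr4:146463563-146464403, rose from 6.43% and 7.62% to 11.7% and 15.4% (1.04 ± 0.26 SE, DESeq2 adjusted p = 0.0137), while its counts were 110 and 117 and then 125 and 107. These shares are set against each other, since the gene has 3 introns. Measured against the gene's own counts, intron 1 passed the test and intron 2 did not. Intron 2 of Zfp523, chr17:28186211-28189796, held 50.1% and 42.1% in Tdrd6+/- and 36.9% and 29.2% in Tdrd6-/- (-0.79 ± 0.24 SE, DESeq2 adjusted p = 0.0675). Against gene counts that call was lost (DESeq2 adjusted p = 0.24), as it was by edgeR (0.19) and with no independent filtering (0.27). Against gene counts, 0 of 234 Zfp introns were higher and 6 lower, while 1.05% of all introns tested that way were higher and 3.20% lower. In the fits that leave out a sample, the share of all introns that passed changed too. Without Tdrd6+/- replicate 1 or without Tdrd6-/- replicate 2, 0 introns passed, while 5 passed without Tdrd6+/- replicate 2 and 6 without Tdrd6-/- replicate 1.

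Among 1187 exon segments and junctions tested in the members, 1 changed its share of the gene's counts, or 0.084%, against 0.221% of all 147710 (DESeq2 likelihood ratio test against the rest of the gene, FDR 0.1). It was exon segment 1 of Zfp236, with 4.88% and 3.48% of the gene's counts in Tdrd6+/- and 2.42% and 1.41% in Tdrd6-/- (log2 change -1.18 ± 0.30 SE, DESeq2 adjusted p = 0.0577). The files give segments a number and no position. The next smallest adjusted p belonged to segment 7 of Zfp943, which held 52.6% and 59.7% and then 65.5% and 66.8% (0.60 ± 0.17 SE, DESeq2 adjusted p = 0.16), and segment 16 of Zfp260, which held 73.3% and 72.8% and then 65.1% and 64.2% (-0.57 ± 0.17 SE, DESeq2 adjusted p = 0.21). In both, the genotypes did not overlap, but the difference did not pass the test. Without Tdrd6+/- replicate 1 or without Tdrd6-/- replicate 2, 0 passed, without Tdrd6+/- replicate 2, 8 passed as higher and 3 as lower, and without Tdrd6-/- replicate 1, 0 as higher and 3 as lower. In the latter fits 0.461% and 0.102% of all features passed.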

How the data were processed

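Total RNA was depleted of rRNA and sequenced from strand-marking libraries. The authors used GSNAP for alignment to mm10, took gene models from Ensembl v75 and deposited raw counts per gene, exon segment and junction, and per intron. The submitters' processing notes name bcl2fastq 1.8.4. The counting program and its use of strand are not given in the sources used here. The members and gene lists were chosen with earlier results of these data known.

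Symbols, exon lengths and positions came from GENCODE M21 (mm10). Introns were placed by their number in genes with as many introns in the deposited counts as in this annotation. Gene expression was tested on all genes with edgeR 4.0.16 in R 4.3.3 (TMM, filterByExpr, quasi-likelihood test, Benjamini-Hochberg, FDR 0.1), and CPM uses TMM library sizes. The ratio was tested as an interaction of count type and genotype, with at least 10 counts of each. Intron, exon and junction usage followed the DEXSeq and JunctionSeq models in DESeq2 1.42.0, with independent filtering. The main fit of each comparison was run on simulated counts with known changes and the same spread for every gene. The changes put in were larger than most of those called here, and the alternative fits were not simulated. Fingers were counted as C2H2 spacing patterns and KRAB boxes by a sequence pattern loosened after looking at the members, which can miss diverged boxes. Whether the replicates came from separate animals is given only as pools, so p-values measure the spread between these samples.

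Genes named were the 3 on each side of the threshold, the 6 highest and lowest levels and ratios per kb, and every gene, intron or segment past the FDR or, where fewer than 3 passed, the 3 with the smallest adjusted p. Alternatives were DESeq2 or edgeR, other scalings and filters, FDR 0.05, other thresholds of membership, a replicate block and leaving out each sample. Chd4, Patz1, Spag6 and Insl3 had no row of their own under that symbol and were not used here.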

Additional observations from a re-analysis of the deposited data

How the results depend on the processing

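All 11 lowered Zfp genes stayed lower under each of the alternatives tried, and Zfp990, Zfp664 and Zfp609 also passed in each. The number of changed genes was 7 at an FDR of 0.05, and 3 to 9 when a sample was left out. For the intron to exon ratio it was 3 with a membership threshold of 4000 counts, 3 with both kinds of count scaled alike and 0 to 9 with a sample left out. Changed introns numbered 6 against gene counts and 0 to 6 with a sample left out. Changed exon segments and junctions numbered 0 at an FDR of 0.05, 4 by edgeR, 0 with no independent filtering and 0 to 11 with a sample left out. The share of gene counts was 1.03% and 0.842% with thresholds of 1000 and 4000 counts, against 0.965%. The median ratio of 0.270 was 0.101 per kb and 0.181 at 4000 counts. The cause of these shifts was not tested, except that other thresholds change the members. Over all genes and features, the share that passed also changed with the sample left out. No named gene, intron or segment changed sign, but the split of calls shifted. Ratios were 5 higher and 4 lower without Tdrd6-/- replicate 1, and exon segments and junctions 3 higher and 1 lower by edgeR and 8 higher and 3 lower without Tdrd6+/- replicate 2. By the mean count, 211 of 735 introns and 1187 of 2398 exon segments and junctions of the members passed the filters, of 85.5 and 53.4, so features below them have no call. Without these filters 2 introns and 0 segments passed. With 2 samples a group, where a sample was left out the lone sample is assumed to vary like the other group.

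Whether the replicate numbers pair the samples is not stated in the sample labels. Replicate 1 had more intron counts per gene count over the whole library in both genotypes. The values were 0.527 and 0.419 in Tdrd6+/- and 0.425 and 0.306 in Tdrd6-/-, with replicate 1 first. The cause of this was not tested. The deviations of same-numbered samples had a correlation of -0.12 over 12347 genes and 0.05 over 44784 introns. With the replicate number as a block, 13 genes, 5 ratios, 4 introns and 1 exon segment passed. With the crossed pairing, added after seeing the data, 11 genes and 1 exon segment passed.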
